A study of Mus musculus with 6 samples.

Results

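The genes described here are the secreted CCN proteins Ccn1 and Ccn2 together with transcripts that are widely read as outputs or parts of the YAP/TEAD transcription system, 10 genes in all of the 28154 in the deposited table. They were chosen by gene name (Ccn1, Ccn2, Ankrd1, Amotl2, Lats2, Ajuba, Axl, Yap1, Tead1 and Tead4), and each name matched 1 row. The study sequenced RNA of 4T1, a mouse mammary carcinoma cell line, in 3 control libraries and in 3 libraries of cells treated with corticosterone, the main glucocorticoid of rodents. Dose and duration of treatment and the kind of control are not given, and all 6 libraries come from this 1 line. The labels do not say whether replicates were separate cultures. The p-values therefore reflect spread among these libraries, which may be technical.

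In the Hippo pathway, the kinases MST1/2 activate the kinases LATS1/2, which phosphorylate the coactivators YAP and TAZ and keep them out of the nucleus. When this brake is off, as in spread or stretched cells, YAP and TAZ bind the TEAD transcription factors, which recognise the DNA motif CATTCC, and switch on genes such as Ccn1, Ccn2 and Ankrd1. Some of these outputs, LATS2 and the angiomotin family member AMOTL2 among them, in turn restrain YAP. In carcinoma cells the pathway is studied for its part in growth, matrix remodelling and metastasis.

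Ccn2 rose 1.79-fold with corticosterone, while Ccn1 fell 1.41-fold and Ankrd1 fell 1.46-fold, so the 3 genes that are most often used together as YAP readouts moved in opposite directions. Tead4, which encodes one of the TEAD factors, rose 1.55-fold. Its call, unlike those of the first 3 genes, was lost when most single libraries were left out. The other 6 genes did not pass the test, and 5 of them (Amotl2, Lats2, Ajuba, Axl and Yap1) had log2 fold changes between -0.0088 and 0.028. Thus 4 of the 10 changed (edgeR's quasi-likelihood test with p-values adjusted by Benjamini-Hochberg, BH, over all genes, threshold 0.05), 2 higher and 2 lower, beside 2.82% of the 17283 genes tested (1.35% higher and 1.46% lower). All 10 passed the filter on low counts, with 1315 to 70692 counts per library, while genes with far fewer counts were tested too. The 10 genes were chosen with earlier results of these data known. Setting 4 of 10 beside 2.82% is therefore a description and not a test.

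The promoter sequences are shown because they hold the motif that names this group of genes. In the RefSeq promoter table (build GRCm38.p6, a window of 300 bases from 250 before to 50 after the start), 7 of the 10 genes matched by symbol, with 8 promoters because Lats2 has 2 entries. Entries for Ccn2, Tead1 and Tead4 were not matched. Each of the 7 genes held CATTCC, or GGAATG on the opposite strand, in at least 1 promoter window. It was held by 16.6% of all 27025 genes listed there and by 14.7% of their 32851 promoters. The 250 bases before the start, on the strand of the gene and with the motif in capitals, are given for the pair that fell, Ccn1 (chr3:145649986-145650235, minus strand) and Ankrd1 (chr19:36119845-36120094, minus strand), and for Amotl2 (chr9:102717554-102717803, plus strand), which did not pass.
Ccn1: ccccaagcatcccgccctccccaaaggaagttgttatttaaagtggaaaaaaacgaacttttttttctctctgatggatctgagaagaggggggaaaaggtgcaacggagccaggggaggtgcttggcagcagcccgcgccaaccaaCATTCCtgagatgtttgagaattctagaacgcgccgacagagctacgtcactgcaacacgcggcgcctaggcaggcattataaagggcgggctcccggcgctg
Ankrd1: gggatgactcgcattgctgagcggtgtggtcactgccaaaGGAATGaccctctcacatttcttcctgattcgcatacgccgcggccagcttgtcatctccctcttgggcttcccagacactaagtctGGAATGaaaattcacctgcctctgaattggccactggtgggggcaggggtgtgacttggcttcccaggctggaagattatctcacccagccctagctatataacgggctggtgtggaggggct
Amotl2: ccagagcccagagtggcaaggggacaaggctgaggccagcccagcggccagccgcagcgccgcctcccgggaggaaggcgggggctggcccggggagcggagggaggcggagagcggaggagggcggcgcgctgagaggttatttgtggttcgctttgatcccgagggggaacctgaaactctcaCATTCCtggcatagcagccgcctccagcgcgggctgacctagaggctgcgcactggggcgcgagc

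For the other 4 genes, none of which passed the test, windows of 30 bases around the motif are given for comparison with the first 3. They lie at chr14:54577830-54577859 and chr14:54577808-54577837 for Ajuba, at chr7:25788949-25788978 for Axl, at chr9:8004720-8004749 for Yap1 and at chr14:57746102-57746131 for Lats2, all on the minus strand.
Ajuba, first: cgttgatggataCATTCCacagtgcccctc
Ajuba, second: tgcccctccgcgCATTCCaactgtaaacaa
Axl: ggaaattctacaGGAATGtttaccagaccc
Yap1: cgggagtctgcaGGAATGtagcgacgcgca
Lats2: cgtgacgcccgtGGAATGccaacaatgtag

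The motif was present in genes that fell and in genes that did not pass alike. In Ccn1 it began 103 bases before the start, and in Ankrd1 there were 2 matches, at 210 and 123 bases before it, both as GGAATG. Ajuba also had 2, at 186 and 164 bases, whereas 1.36% of all promoters had at least 2. The match in Amotl2 lay 65 bases, in Yap1 141 bases and in Axl 233 bases before the start, and the one in Lats2 began at base 5 of the transcribed part. These distances are from the RefSeq starts, which can differ from those of other annotations. The Amotl2 window lies inside the gene as annotated in the deposited values, from 102716672 on chromosome 9. Both matches in Ankrd1 lie inside its span in GENCODE M21, which ends at 36120099 on chromosome 19. The Lats2 window with the match likewise lies inside the GENCODE M21 span of Lats2, which ends at 57758388 on chromosome 14. Searched in the same windows on both strands, the AP-1 motif TGANTCA, the palindromic glucocorticoid response element and the CArG box bound by SRF were each found in 0 of the 8 promoters, beside 7.81%, 0.475% and 1.63% of all promoters. A match is a run of letters and not a measured binding site, and no match says only that those letters are not in these windows.

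**Figure D1:**
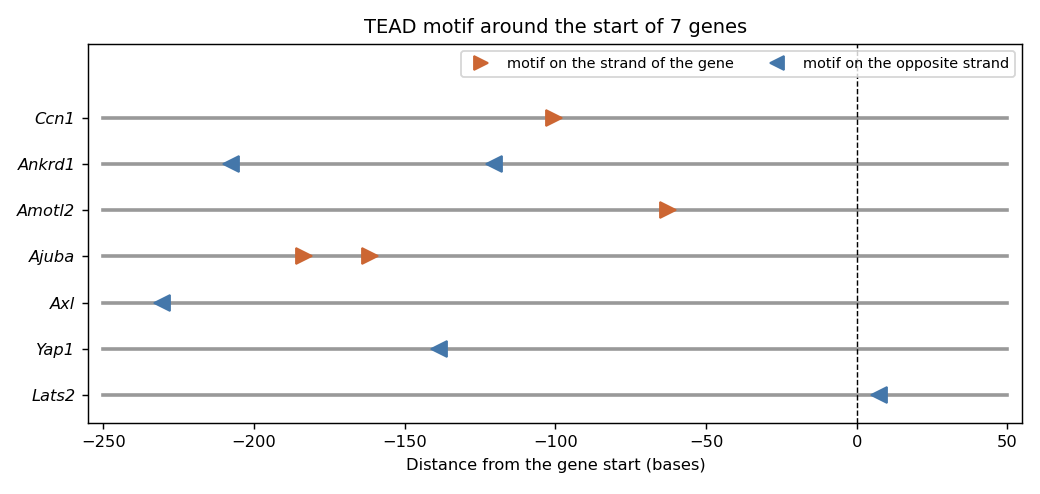
Position of CATTCC, on either strand, in the RefSeq promoter window of 7 genes (for Lats2, the 1 of its 2 promoters that holds it). The x axis is the distance in bases from the RefSeq start, which can differ from the start in other annotations. Each line is a window of 300 bases and each arrowhead a match. Ankrd1 and Ajuba have 2 matches each, and that of Lats2 is the 1 match after the start.

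Library depth was even, at 62.2 to 66.2 M counts. As a check of treatment, 5 known targets of the glucocorticoid receptor (Per1, Tsc22d3, Klf9, Sgk1 and Fkbp5) were 1.70 to 3.37-fold higher with corticosterone. Among treated libraries, corticosterone replicate 2 was closest to the controls on the first principal component (9.17, against 29.6 and 38.5, with controls at -33.8 to -21.5), and without it 20.5% of genes passed, so values without that library are given beside the results. All 8 epithelial carcinoma markers had a mean of at least 1 FPKM (fragments per kilobase of transcript scaled for depth, the per-length unit in which levels of different genes are compared), with a sum of 1567 to 1633 FPKM in controls and 1462 to 1723 with corticosterone. Fibroblast markers summed to 7.46 to 9.57 FPKM in controls and 8.82 to 9.63 with corticosterone, with 2 of 7 at a mean of at least 1. For leukocyte markers the sums were 25.6 to 27.5 and 23.0 to 27.8, mostly Cd68, and for endothelial markers 0.204 to 0.286 and 0.0983 to 0.123. In bulk RNA, fewer cells with a transcript and less transcript per cell cannot be told apart.

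In controls, Axl was the most abundant of the 10 transcripts (184 ± 8.69 FPKM, SD, n = 3), followed by Ccn1 (115 ± 5.62), Ankrd1 (96.0 ± 4.52) and Ccn2 (49.3 ± 1.57). Ajuba (28.4 ± 0.670), Amotl2 (18.8 ± 0.262), Yap1 (16.3 ± 0.522) and Tead1 (8.36 ± 0.645) came next, and Lats2 (5.26 ± 0.381) and Tead4 (5.21 ± 0.394) overlapped at the bottom of the order. With corticosterone Ccn2 (88.4 ± 4.26 FPKM) stood second, above Ccn1 (82.1 ± 2.02) and Ankrd1 (65.9 ± 0.953). Its lowest treated library (85.1) lay just above the highest of Ccn1 (84.4). Tead4 (8.14 ± 1.27) stood above Lats2 (5.28 ± 0.678) and came to overlap Tead1 (10.8 ± 1.79). The order of Axl, Ajuba, Amotl2 and Yap1 was the same in both groups.

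**Figure D2:**
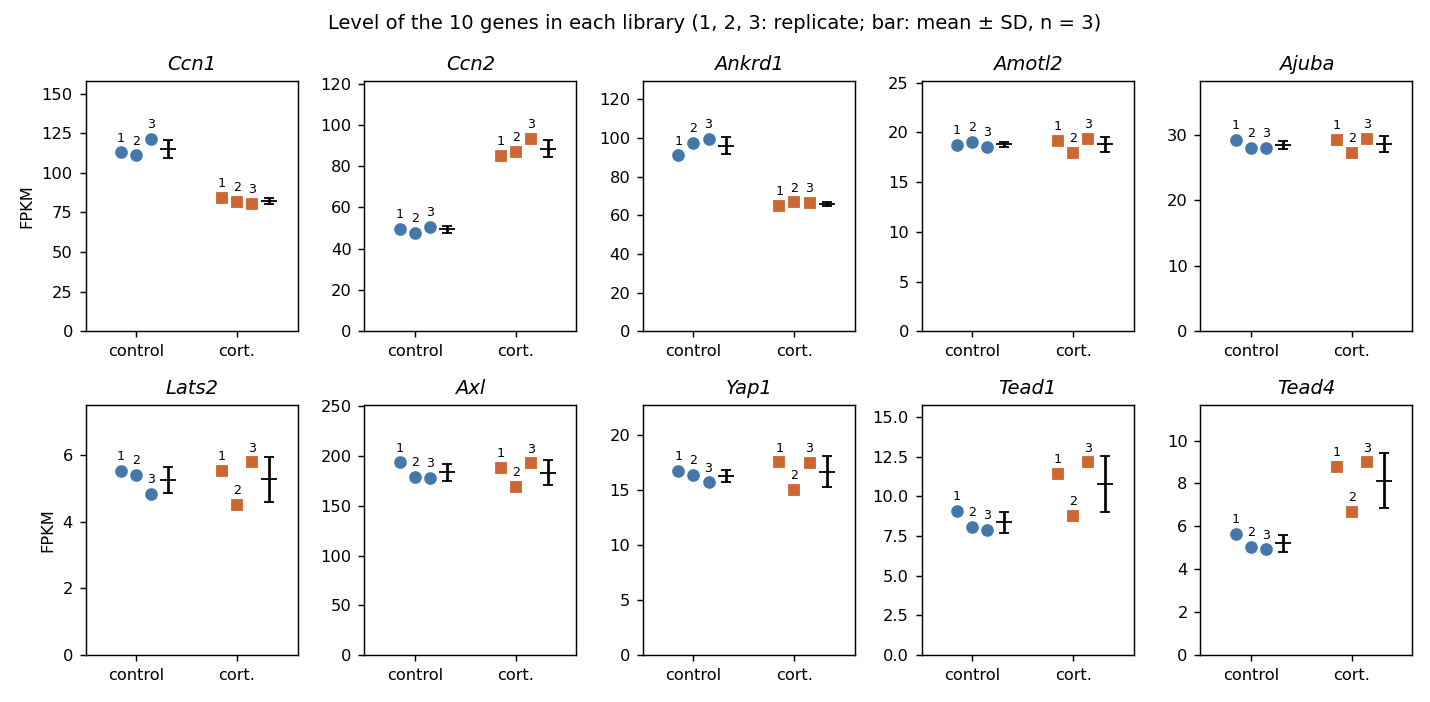
Level in FPKM (y axis, from 0, own scale per gene) of the 10 genes in the 3 control and 3 corticosterone libraries, with replicate numbers beside the points and the mean ± SD (n = 3) to their right. Ccn1 and Ankrd1 are lower and Ccn2 and Tead4 higher in all treated libraries, and corticosterone replicate 2 lies low for Tead1, Tead4 and Lats2.

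Ccn2 (chromosome 10, 24595442 to 24598683, GRCm38, plus strand) encodes CTGF, a matricellular protein that binds integrins and growth factors and promotes fibrosis. It had 160.2, 154 and 165 CPM (counts scaled for library depth and composition) in control replicates 1, 2 and 3, and 272, 285 and 298 CPM in corticosterone replicates 1, 2 and 3. Every treated library was above every control. The log2 fold change was 0.84 (SE 0.056; BH-adjusted p in edgeR = 0.00078), the fourth lowest p of all genes tested, and it was 0.84 also without corticosterone replicate 2.

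Ccn1 (chromosome 3, 145646976 to 145649981, minus strand) encodes CYR61, a relative of CTGF and likewise a secreted ligand of integrins. It had 257, 253 and 279 CPM in control replicates 1, 2 and 3, and 191, 189 and 181 CPM in the treated ones. All treated libraries were below all controls, and the spread among treated libraries (SD 5.01 CPM) was small beside the difference of the means, 263 and 187 CPM. The log2 fold change was -0.49 (SE 0.056; BH-adjusted p in edgeR = 0.00448), and -0.50 without corticosterone replicate 2.

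Ankrd1 (chromosome 19, 36111961 to 36119910, minus strand) encodes an ankyrin repeat protein first known from heart muscle, found in sarcomeres and in the nucleus. Controls had 296, 318 and 327 CPM and treated libraries 209, 221 and 213 CPM, again without overlap. The log2 fold change was -0.55 (SE 0.056; BH-adjusted p in edgeR = 0.00285), and -0.57 without corticosterone replicate 2. The calls of Ccn2, Ccn1 and Ankrd1 held when each library was left out in turn, with BH-adjusted p up to 0.0122, 0.0377 and 0.0364 (edgeR, BH).

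The opposite changes show in ratios taken within each library, which were computed after the values had been seen. Ccn1 was 2.27, 2.33 and 2.40 times the FPKM of Ccn2 in control replicates 1, 2 and 3, and 0.991, 0.938 and 0.863 times in the treated ones. The ratio thus turned from above 1 in all controls to below 1 in all treated libraries, a change of -1.33 on the log2 scale. Its groups had to separate, because Ccn1 was lower and Ccn2 higher in every treated library, so no p-value is given for it. Ankrd1 over Ccn1, 2 genes that both fell, was 0.835 ± 0.0391 in controls and 0.803 ± 0.0303 with corticosterone (SD, n = 3). The groups overlapped (two-sided p = 0.5 by exact permutation, where 0.1 is the lowest that 3 against 3 libraries allow).

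Among 7438 other tested genes with a mean of at least 5 FPKM, those closest to Ccn2 in log2 CPM relative to the control mean over the 6 libraries were Fkbp5, Abcb1b and Depdc7, at root mean square distances of 0.066, 0.077 and 0.091. Closest to Ccn1 were Plau, St3gal1 and Irgm1, at 0.059, 0.061 and 0.063. Fkbp5, which binds the unliganded glucocorticoid receptor complex, had a log2 fold change of 0.77 and Plau, the urokinase plasminogen activator, one of -0.49, beside 0.84 for Ccn2 and -0.49 for Ccn1. These genes were picked for closeness over the same 6 libraries, so similar fold changes follow from the choice. Shared regulation was not tested.

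Tead4 (chromosome 6, 128224288 to 128300823, minus strand) had 23.0, 20.5 and 20.1 CPM in control replicates 1, 2 and 3 and 35.3, 27.6 and 36.1 CPM in the treated ones. No treated library reached down to the controls, but corticosterone replicate 2 lay between the controls and the other treated libraries. The log2 fold change was 0.64 (SE 0.11; BH-adjusted p in edgeR = 0.0262). The call was lost without each library except corticosterone replicate 2 (BH-adjusted p in edgeR of 0.0775 to 0.162). Without that library the log2 fold change was 0.75 (BH-adjusted p in edgeR = 0.000688).

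Tead1 (chromosome 7, 112679318 to 112906807, plus strand) encodes another TEAD factor. It had 139, 124 and 122 CPM in controls and 174, 136 and 184 CPM in treated libraries, so that corticosterone replicate 2 fell within the range of the controls. Its log2 fold change of 0.36 (SE 0.11, 95% interval 0.11 to 0.61) did not pass over all libraries (BH-adjusted p in edgeR = 0.148). It was 0.48 and passed without corticosterone replicate 2 (BH-adjusted p in edgeR = 0.00161), where 5 of the 10 genes passed, 3 higher and 2 lower, beside 20.5% of all genes, and DESeq2 called it over all libraries (Benjamini-Hochberg adjusted p = 0.0197).

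Of the remaining TEAD factors Tead2, the most abundant of the family by FPKM, fell from 91.9 ± 1.75 to 75.4 ± 4.31 CPM (SD, n = 3), by 0.29 on the log2 scale (SE 0.060; BH-adjusted p in edgeR = 0.0466). Its call too was lost without each library except corticosterone replicate 2 (highest BH-adjusted p in edgeR = 0.213). It was also lost with limma-voom (BH-adjusted p = 0.054) and with no filter on low counts (edgeR, BH-adjusted p = 0.094). Tead3, named after its values were seen, stood at -0.21 on that scale and did not pass (BH-adjusted p in edgeR = 0.274). Summed over the 4 genes, TEAD transcripts came to 33.5 ± 1.25 FPKM in controls and 35.4 ± 2.39 FPKM with corticosterone, and the groups overlapped. Within that sum the share of Tead2 went from 50.6 ± 0.769% to 39.6 ± 4.31%, that of Tead4 from 15.5 ± 0.595% to 22.9 ± 2.13% and that of Tead1 from 24.9 ± 0.990% to 30.3 ± 3.17%, each without overlap between groups. These shares are parts of 1 sum and so depend on each other, and the level of Tead1 itself overlapped between groups. Among all genes tested, 22.2% did not overlap in CPM.

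**Figure D3:**
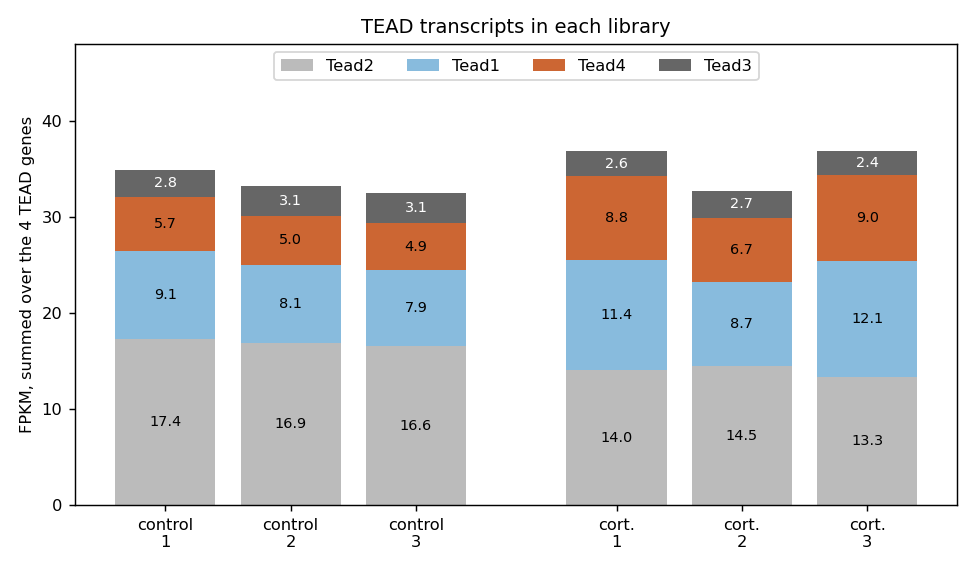
FPKM of Tead1 to Tead4 (y axis, stacked, from 0) in each of the 3 control and 3 corticosterone libraries. The Tead4 segment is taller and the Tead2 segment shorter in all treated libraries, while the summed height overlaps between the groups.

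Yap1 (chromosome 9, 7931999 to 8004596, minus strand), the coactivator itself, had 175, 171 and 166 CPM in controls and 182, 160.1 and 180.4 CPM in treated libraries. Its log2 fold change was 0.028, with a 95% interval of -0.11 to 0.17. Its relative Wwtr1, which encodes TAZ and was named after its values were seen, had one of 0.0067 (95% interval -0.15 to 0.16). The transcripts of both coactivators thus did not pass, and their intervals leave room for changes of these sizes.

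Axl (chromosome 7, 25757273 to 25788705, minus strand) encodes a receptor tyrosine kinase bound by the ligand GAS6 and tied to invasion and drug resistance. Controls had 1099, 1019.8 and 1018 CPM and treated libraries 1059, 978 and 1082 CPM, and the log2 fold change was -0.0088 (95% interval -0.14 to 0.12). Of all 5 TAM receptor and ligand genes, edgeR called 0, beside 2.82% of all genes, and DESeq2 called 0, beside 1131 genes in all. In edgeR 1 of the 5 had an unadjusted p under 0.05, where an unadjusted p of 0.0412 ranked 2601 of the 17283 tested. Without corticosterone replicate 2, 1 of the 5 was called, as lower, beside 20.5% of all genes. Over all libraries, those of the 5 with the lowest p were the receptor Tyro3 (-0.20) and Gas6 (0.43), the ligand. Gas6 stood at 1.06 ± 0.592 CPM in controls (SD, n = 3).

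Amotl2, Lats2 and Ajuba are outputs or regulators that act on the LATS kinases and on YAP. Amotl2 (chromosome 9, 102716672 to 102733418, plus strand), which holds YAP at cell junctions, had 133, 136 and 133 CPM in controls and 135, 129 and 136 CPM with treatment. Its log2 fold change of -0.0056 had a 95% interval of -0.12 to 0.11. Ajuba (chromosome 14, 54567472 to 54577558, minus strand), a LIM protein that binds and restrains LATS, had 120.1, 115 and 116 CPM and then 119, 114 and 119.5 CPM (log2 fold change 0.0029, 95% interval -0.11 to 0.12). Lats2 (chromosome 14, 57689662 to 57746123, minus strand), the kinase, had 43.6, 42.7 and 38.3 CPM and then 43.2, 36.1 and 45.0 CPM, with a wider interval of -0.22 to 0.22 around -0.0029. In these 3 genes, in Axl and in Yap1, corticosterone replicate 2 was the lowest of all 6 libraries, and the groups overlapped. Changes as large as that of Ccn1, Ccn2 or Ankrd1 lie outside all 5 intervals.

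**Figure D4:**
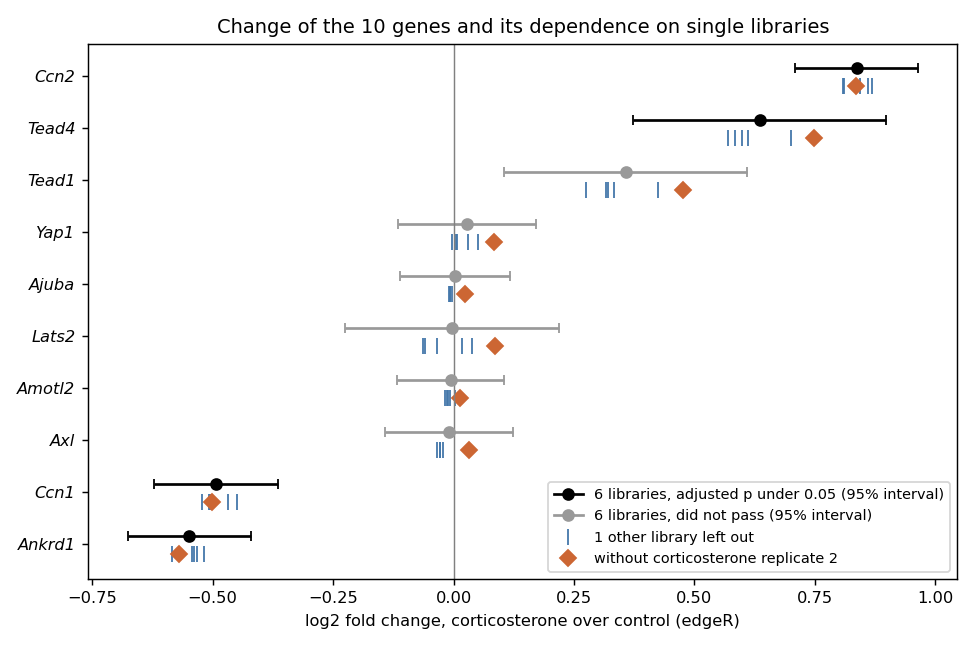
Log2 fold change of the 10 genes, corticosterone over control, in edgeR (x axis), with the 95% interval over 6 libraries and, below each, the value with 1 library left out. Ccn2, Ccn1 and Ankrd1 move little when a library is left out, whereas Tead1 and Tead4 shift to 0.48 and 0.75 without corticosterone replicate 2.

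Groups did not overlap in TMM-scaled CPM for the same 4 genes that changed, Ccn1, Ccn2, Ankrd1 and Tead4, beside 22.2% of all genes tested. By the annotation deposited with the values, 6 of the 10 genes carry the KEGG Hippo signaling pathway (Ccn2, Lats2, Ajuba, Tead1, Tead4 and Yap1). Of these Ccn2 and Tead4 passed, both higher, and the others did not, beside 2.82% of all genes passing. Ccn1 and Ankrd1, the pair that fell, do not carry it, and nor do Amotl2 and Axl, which did not pass. This split was read after the directions were known and was not tested. Among genes with a row in the deposited table, some on the opposite strand overlap 4 of the 10 (Ccn2, Lats2, Tead1 and Tead4), with at most 56 counts in any library. In GENCODE M21, Gm20416 overlaps Yap1 on the opposite strand, and no value for it was used here. Whether counting used the strand is not stated in the labels.

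Across 6 lists of related genes, which include all 10 genes described above, 79 distinct genes were tested. Of these 8 changed, 4 higher and 4 lower, beside 2.82% of all genes. Ccn1, Ccn2, Ankrd1 and Tead4 are among the 8, and the rest are Tead2, Fjx1, Tpm1 and Filip1l. Without corticosterone replicate 2, 37 passed, 5 of the 10 among them, where 20.5% of all genes did. Of the 6 CCN genes, Ccn2 rose, Ccn1 fell and 4 did not pass. Ccn4 (WISP1), named after its values were seen, went from 17.1 ± 1.44 to 12.2 ± 1.57 CPM (SD, n = 3). Its log2 fold change of -0.49 did not pass (BH-adjusted p in edgeR = 0.072), and that of -0.39 without corticosterone replicate 2 did (BH-adjusted p in edgeR = 0.0248). The other CCN genes were at most 1.68 CPM in the mean of either group.

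In a list of 22 genes used as a YAP/TAZ target signature, 21 were tested, 2 rose, 2 fell and 17 did not pass, beside 2.82% of all genes passing, with a median log2 fold change of -0.0056 beside 0.00010 over all genes. It holds 6 of the 10 genes described above. Of its 15 other tested genes 1 rose, Fjx1, the relative of the fly Golgi kinase four-jointed and of low abundance here, from 0.886 ± 0.109 to 1.73 ± 0.149 CPM (log2 fold change 0.96, SE 0.20; BH-adjusted p in edgeR = 0.048), a call lost without each library except corticosterone replicate 2 (highest BH-adjusted p in edgeR = 0.203). Without that library 6 members rose and 5 fell, beside 20.5% of all genes passing. The call of Fjx1 was also lost with limma-voom (BH-adjusted p = 0.0587) and with no filter on low counts (edgeR, BH-adjusted p = 0.0821).

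Of 25 Hippo kinases and upstream regulators, edgeR called 0, beside 2.82% of all genes. DESeq2 called 1, as lower, beside 1131 genes in all. In edgeR 4 of the 25 had an unadjusted p under 0.05, which was common among all genes. Lats1, at an unadjusted p of 0.0412 in edgeR, ranked 2601 of the 17283 tested. The median log2 fold change was 0.098, with 17 above 0 and 8 below. Those with the lowest p were Nf2, which encodes the scaffold merlin (-0.18, BH-adjusted p in edgeR = 0.0923), and Wtip, a LIM protein at 0.288 ± 0.0816 CPM in controls (1.35, BH-adjusted p in edgeR = 0.0928). Without corticosterone replicate 2, 12 of the 25 passed, 11 higher and 1 lower, beside 20.5% of all genes (1884 higher and 1786 lower of 17862 tested).

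Many YAP targets are also targets of SRF and its actin-sensing cofactors, the MRTFs. Of 20 cytoskeletal genes of that kind, Tpm1, which encodes a tropomyosin of actin filaments, fell from 518 ± 20.4 to 381 ± 16.9 CPM (log2 fold change -0.44, SE 0.056; BH-adjusted p in edgeR = 0.00662). Filip1l rose from 96.8 ± 4.68 to 127 ± 6.75 CPM (0.40, SE 0.062; BH-adjusted p in edgeR = 0.0159), and 18 did not pass, beside 2.82% of all genes passing. The list median was 0.034. The call of Tpm1 did not survive leaving out control replicate 2 or corticosterone replicate 1 (highest BH-adjusted p in edgeR = 0.07). That of Filip1l, whose counts are uncertain because Cmss1 overlaps it on the opposite strand with up to 1068 counts, was lost without control replicates 2 or 3 or corticosterone replicates 1 or 3 (highest BH-adjusted p in edgeR = 0.117). Without corticosterone replicate 2, 3 rose and 5 fell, beside 20.5% of all genes passing.

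**Figure D5:**
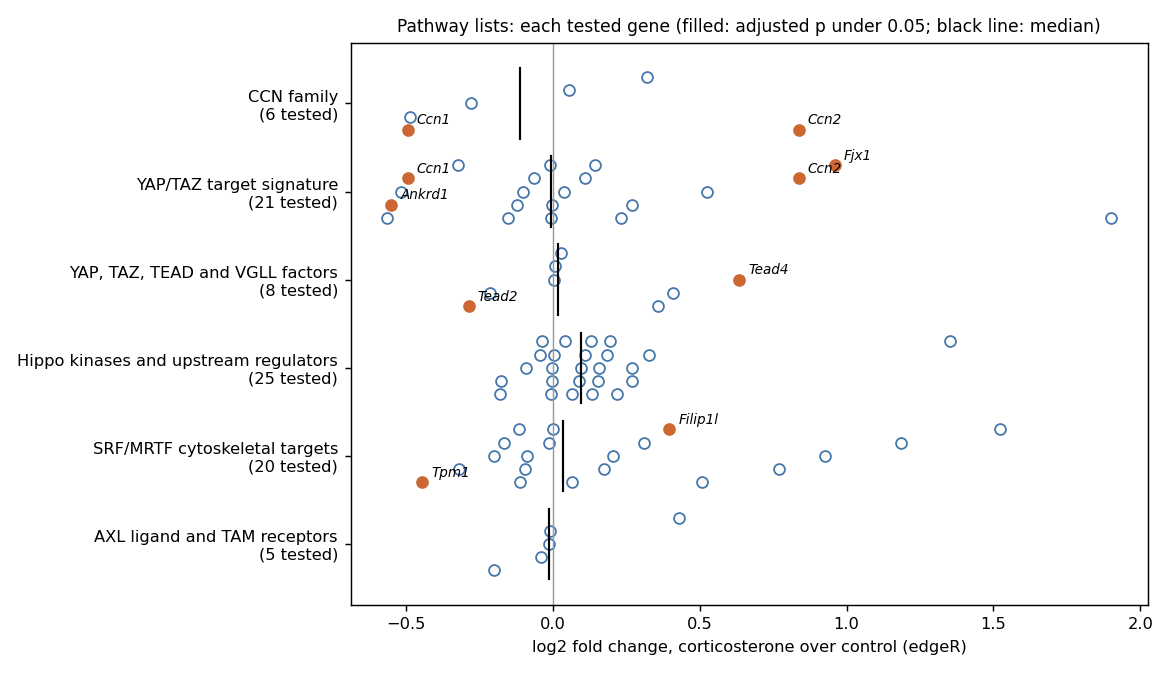
Log2 fold change, corticosterone over control (x axis), of each tested gene of 6 lists. Filled points passed at an adjusted p under 0.05, open points did not, and black lines are list medians. Among 79 distinct genes 8 are filled, 4 on each side of 0.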

How the data were processed

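RNA sequencing of 6 libraries was read from 1 deposited table of 28154 mouse genes. The counts were deposited as whole numbers for each gene and library, not normalized by the authors, per the file headers. FPKM values were computed by the authors, per the file headers. No source used here names the aligner, counter, strand or read layout. GRCh38 is the build in the submitters' processing notes, but all gene identifiers are mouse; 28086 were found in GENCODE M21 (GRCm38), 90.4% with identical coordinates, as were 8 of the 10 genes described.

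Library totals were 62.2 to 66.2 M counts. Genes were filtered with filterByExpr (minimum count 10, total 15) and scaled by TMM, and the groups were compared with edgeR 4.0.16 (quasi-likelihood, R 4.3.3; adjusted p under 0.05 over 17283 genes). The SE is the log2 fold change over the root of F. The pipeline was tested on simulated data. Same-numbered libraries did not deviate together, so they were not paired. Replicate pairs differed by more than counting noise. The genes and lists were chosen with earlier results of these data known. Named were all 10 genes, each changed member of a list or else its 2 lowest p, and for Ccn1 and Ccn2 the 3 nearest genes. Alternatives were DESeq2 1.42.0, limma 3.58.1 on FPKM and voom, other scalings, filters and thresholds, a replicate block and leaving out each library.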

Additional observations from a re-analysis of the deposited data

How the results depend on the processing

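Ccn2, Ccn1 and Ankrd1 kept their direction and passed under all 15 alternatives to the test, scaling, filter and libraries, with log2 fold changes of 0.81 to 0.87, -0.52 to -0.45 and -0.58 to -0.52. Tead4 stayed positive (0.55 to 0.75) but did not pass in 6 of the 15, those without 1 library named above and that with no filter on low counts (BH-adjusted p in edgeR = 0.0835). The count of the 10 genes that passed was 3 to 5 throughout. The number of all genes passing was 487, against 1131 with DESeq2, 211 with no filter on low counts, 144 and 889 at adjusted p under 0.01 and 0.1, and 88 to 3670 with 1 library left out. The 8 list genes became 15 with DESeq2, 5 with no low count filter and 3 to 37 with 1 library left out. By list, DESeq2 called 1 Hippo regulator and 4 SRF/MRTF targets, and the YAP, TAZ, TEAD and VGLL list of 8 tested genes, with 2 calls, had 0 with no low count filter and 1 with limma-voom. With 1 library left out, calls ranged from 0 to 1 in the AXL list, 0 to 12 for Hippo regulators, 0 to 8 for SRF/MRTF targets, 0 to 5 for YAP, TAZ, TEAD and VGLL factors and 3 to 11 for the target signature. The causes were not tested. Genes near 0 changed sign without passing: Lats2 was 0.0012 with DESeq2, 0.00059 with its size factors, 0.0072 with library totals alone and 0.0062 with a mean of at least 5 FPKM, Amotl2 0.0037 and 0.0027 under the last 2, and Axl 0.00074 with library totals. With 1 library left out Lats2 ranged from -0.063 to 0.087, Amotl2 from -0.017 to 0.014, Ajuba from -0.0088 to 0.024, Axl from -0.035 to 0.033 and Yap1 from -0.0038 to 0.084.

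With the replicate block, 237 genes passed in all and 1 of the YAP, TAZ, TEAD and VGLL factors. The calls of Tead2 and Fjx1 were lost (BH-adjusted p in edgeR = 0.113 and 0.136), leaving 3 calls in the target signature, and those of the 10 genes, Tpm1 and Filip1l were the same. Replicate numbers do not pair the libraries by any label, and deviations of same-numbered libraries from their group means had correlations of 0.011, 0.038 and -0.088 across genes. Among the 6 genes that did not pass, Tead1 had the widest 95% interval at these depths and this number of libraries, from 0.11 to 0.61 on the log2 scale.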
